A study of Mus musculus with 8 samples.

Results

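Natural killer (NK) cells of mouse liver tumours were described from 1 pooled single-cell table. A cell was taken as an NK cell when the mean deposited value of Ncr1, Klrb1c, Klre1, Klra8 and Eomes was at least 0.8, the mean of Cd3d and Cd3g and the mean of Cd8a and Cd8b1 were each below 0.4, and the mean of C1qa and C1qb was below 0.8. Members were thus chosen by measured values of 11 genes, which are described below and support nothing. The rule found 311 of 53528 cells, or 0.581% (exact binomial 95% interval 0.518% to 0.649%). The comparison class was 10212 CD8 T cells, in which the Cd8a and Cd8b1 mean and the Cd3d and Cd3g mean were both at least 0.8.

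NK cells are innate lymphocytes that kill infected or transformed cells without a rearranged antigen receptor. Activating receptors such as NKp46 (Ncr1), inhibitory receptors for MHC class I and adaptor proteins decide whether an NK cell releases perforin and granzymes. The adaptors carry the activating signal, and the Ly49 family (the Klra genes) holds both inhibitory and activating receptors. Like CD8 T cells, NK cells also secrete interferon gamma and chemokines. In liver they lie next to type 1 innate lymphoid cells, resident relatives with which they share many surface proteins.

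The tumours were formed by Hepa1-6 cells, an established mouse liver cancer line, and were dissociated and profiled with 3′ droplet sequencing on the DNBelab C4 platform. The labels list 8 entries in 4 groups: unedited tumours (genotype WT) with PBS injected intraperitoneally, unedited tumours with an antibody against PD-1, Soat1-edited tumours with PBS, and Soat1-edited tumours with the antibody. Edited tumours are KO in the entry titles but Soat1 knockdown in the genotype field, and the labels give no mouse strain, age, number of animals or number of clones. Cell names end in a number that divides the table into 6 cell sets, nothing ties a set to a group, and so the sets are unassigned samples and neither the editing nor the antibody is compared here.

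Depth was known for set 1 only, where every cell's UMI total could be recovered. Its 28 NK cells had 1043 to 13086 UMIs (median 2557, 93321 UMIs in all), its 1084 CD8 T cells a median of 5280.5, and all 9370 cells of the set a median of 11098.5. The doublet caller marked 0 of the 28 NK cells and 12 of the CD8 T cells, and the remaining 1072 CD8 T cells were used for counts. Levels are given as CPM, the UMIs of a gene per 1000000 UMIs of the class in set 1, or as the mean deposited value, which is on the natural log scale and in sets 2 to 6 had been adjusted in a way no source describes.

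The genes of the rule separated the cells as follows, which is a description and not a result. The mean NK value of the members had a median of 1.37 and a maximum of 2.73. The members just inside the threshold had means of 0.802, 0.804, 0.805, 0.805 and 0.810, and the cells just outside had 0.787, 0.786, 0.781, 0.780 and 0.775. There were 29 cells from 0.6 to below 0.8 and 53 members from 0.8 to below 1. Of the 517 cells at or above the NK threshold, 206 were left out, 166 of them by the Cd3 limit, 135 by the Cd8 limit and 23 by the C1q limit, with overlaps. In set 1, 5 members had a UMI of 2 of the 5 NK genes, 11 of 3, 5 of 4 and 7 of all 5. The rule fixes that its own genes are high: Klrb1c had 77 UMIs in the 28 cells and 19 in the 1072 CD8 T cells, Klra8 had 71 and 1, Ncr1 25 and 2, and Eomes 44 and 329. Klre1 was the least specific of the 5, with 89 UMIs in NK cells (954 CPM) and 2896 in CD8 T cells (392 CPM).

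NK cells were few in every set and their share varied. Set 1 had 28 NK cells among 9370 (0.299%). Set 2 had 70 (0.925%), set 3 had 16 (0.135%) and set 4 had 93 (1.19%). Set 5 had 32 (0.394%) and set 6 had 72 (0.813%). Sets 4, 2 and 6 were high and set 3 was low, and the intervals of set 3 (0.0774% to 0.220%) and set 4 (0.964% to 1.46%) did not overlap. Against CD8 T cells the order changed only in part: per 100 CD8 T cells, set 3 had 0.828 NK cells, set 5 had 2.41, set 1 had 2.58, set 6 had 2.84, set 4 had 4.75 and set 2 had 5.11. Set 3 was lowest on both scales. These are shares of captured cells in sets of unknown group, and the intervals cover counting error only.

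**Figure D1:**
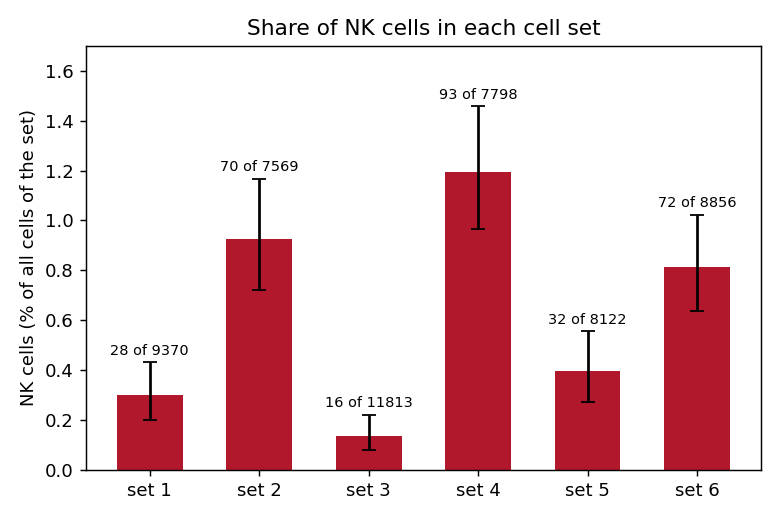
NK cells as a percent of all cells (y axis) in each of the 6 cell sets (x axis); bars are the shares, lines the exact binomial 95% intervals, and the numbers NK cells of all cells. Shares ran from 0.135% in set 3 to 1.19% in set 4.

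Promoter sequences are shown for 3 genes because several promoters of the NK genes looked up hold the same short motif. RefSeq's table for build GRCm38.p6 holds windows of 300 bases, from 250 bases before to 50 bases after the gene start, and 16 of 20 genes looked up (the 5 NK genes of the rule and the 15 highest genes described below) were found; the build behind the expression table is uncertain, and these windows were matched by gene symbol. The core letters bound by Runx factors, TGTGGT or its reverse complement ACCACA, occur in 7 of the 16 windows (43.75%) against 16.9% of 27025 promoters. The T-box letters GGTGTGA or TCACACC occur in 1 of 16 against 3.96% of all, and the Ets letters AGGAAGT or ACTTCCT in 1 of 16 against 9.57%. None of the 3 motifs overlaps another in the windows printed. A match is a string of letters, not a measured binding site. The genes looked up belong to the rule, as Ncr1, Klrb1c and Klre1 do, or were picked as highest in these data. The shares are thus a description only, and any part of the motif in the levels of these genes was not tested. The windows of Ncr1 (chr7:4337465-4337764, plus strand), the NKp46 receptor gene with 2 Runx matches, of Gzma (chr13:113100932-113101231, minus strand), the granzyme A gene, and of Fcer1g (chr1:171234300-171234599, minus strand), the adaptor gene, are printed 5′ to 3′ along the gene with Runx matches in capitals.
Ncr1: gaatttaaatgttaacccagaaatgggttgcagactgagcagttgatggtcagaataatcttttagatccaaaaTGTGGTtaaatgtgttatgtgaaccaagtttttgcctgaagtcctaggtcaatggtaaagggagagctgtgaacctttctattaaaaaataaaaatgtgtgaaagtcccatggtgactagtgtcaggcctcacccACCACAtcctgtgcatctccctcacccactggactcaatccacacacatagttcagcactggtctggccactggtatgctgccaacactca
Gzma: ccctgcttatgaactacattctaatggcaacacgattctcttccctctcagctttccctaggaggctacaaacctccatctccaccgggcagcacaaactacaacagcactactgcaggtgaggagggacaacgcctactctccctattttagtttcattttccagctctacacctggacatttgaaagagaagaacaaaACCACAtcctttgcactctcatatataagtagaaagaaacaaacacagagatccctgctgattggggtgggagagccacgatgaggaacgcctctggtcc
Fcer1g: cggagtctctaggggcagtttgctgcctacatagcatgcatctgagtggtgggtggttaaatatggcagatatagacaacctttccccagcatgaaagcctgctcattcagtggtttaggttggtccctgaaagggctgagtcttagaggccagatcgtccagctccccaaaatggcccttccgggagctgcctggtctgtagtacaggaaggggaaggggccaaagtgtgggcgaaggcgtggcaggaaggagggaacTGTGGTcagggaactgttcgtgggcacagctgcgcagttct
The other genes with a Runx match were Klrb1c, Klre1, Klra1 and Itgax.

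In set 1, 1088 of the 2000 genes had at least 20 UMIs over both classes. By the 2-fold rule 181 of them (16.6%) were higher in NK cells and 470 (43.2%) lower. With 93321 UMIs behind the NK class the lower count rests on little: 309 of these genes had 0 UMIs in NK cells, and for 254 of the 309 the CD8 T level was itself at or under 32.1 CPM, the level that a count of 3 UMIs over the 28 NK cells stands for. When the exact Poisson 95% interval of the ratio had also to exclude 1, a condition added after the data were seen, 94 genes (8.64%) were higher and 134 (12.3%) lower. The median log2 ratio over all 1088 genes was -0.52. Over the 5 sets with at least 20 NK cells, the mean value was higher in NK cells in every set for 164 of the 2000 genes (8.2%) and lower in every set for 750 (37.5%). Counts below are of genes past 2-fold whose interval excludes 1, unless stated. CD8 T cells were deeper and cycled more often (values below), and the part of depth and cycling in single differences was not tested beyond the alternatives in the closing section.

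Genes for NK receptors and their adaptors were mostly higher in NK than in CD8 T cells. Of the 22 of 24 listed genes that passed the filter, 12 were higher in NK cells and 1 lower, against 8.64% and 12.3% of all 1088 genes. The list's median log2 ratio was 1.55. Of all 24, 16 were higher in each of the 5 sets and 4 lower, against 8.2% and 37.5% of all 2000 genes. Tyrobp encodes DAP12, an adaptor with an activating motif that pairs with activating Ly49 and NKG2 receptors. Its mean value in NK cells was 2.24 in the lowest set, 2.38 at the median and 2.53 in the highest, and in CD8 T cells 0.0317, 0.0571 and 0.0832. No set of one class reached the other. In set 1 it had 128 UMIs in NK and 71 in CD8 T cells, 143-fold more per UMI (106 to 194). Fcer1g, the gamma chain that carries signals from NKp46 and Fc receptors, had means of 1.57, 1.89 and 2.15 in NK and 0.0765, 0.0926 and 0.107 in CD8 T cells (43.3-fold, 32.7 to 57.1). Both are also macrophage genes: C1q-high cells of set 1 held 319.5 CPM of Tyrobp and 308.8 CPM of Fcer1g, below the 1372 and 879 CPM of NK cells. The 12 listed macrophage genes summed to 1543 CPM in NK, 986 CPM in CD8 T and 8681 CPM in C1q-high cells. Of the 12, 6 had 0 UMIs in the 28 NK cells, C1qc, Lyz2, Mrc1, Ms4a7 and Cd14 among them, and C1qa, which the rule limits, had 2. Their part in these values was not tested.

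Most Ly49 receptor genes, many of whose products read MHC class I on other cells, were higher in NK than in CD8 T cells. Klra5 was not (below). Klra4 had means of 1.2, 1.39 and 1.89 (lowest, median and highest set) in NK cells against -0.00247, 0.00738 and 0.0124 in CD8 T cells. Klra7 had 0.817, 1.10 and 1.29 against 0.0189, 0.0203 and 0.0275. Klra1 had 0.546, 0.724 and 1.01, and Klra9 0.312, 0.6 and 0.796, with CD8 T means of at most 0.0174. For each of these 4 genes the lowest NK set was above the highest CD8 T set. In set 1 the UMIs were 87 and 6 for Klra4, 54 and 30 for Klra7, 37 and 6 for Klra1 and 23 and 27 for Klra9, in NK and CD8 T cells. The Ly49 genes are near-identical copies of each other, and how reads that match several were counted is not stated. The split between single Klra genes is therefore uncertain. Klra8, a gene of the rule, is 1 of these copies, and the part of its reads in the values of other Klra genes was not tested.

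Ly49 genes were mixed among the members rather than shared by all. In set 1, where a UMI can be counted, Klra7 was seen in 16 of the 28 NK cells, Klra4 and Klra8 in 14 each, Klra9 in 8, Klra1 in 6 and Klra3 in 5. Of these 6 genes, 4 cells had none, 4 had 1, 6 had 2, 9 had 3, 5 had 4 and 0 cells had 5 or 6. Klra8 is a gene of the rule, so its count and the counts per cell partly describe how members were chosen. At this depth a missing UMI does not show that a receptor is absent. In the adjusted sets the share of NK cells with a Klra1 value above 0.5 ran from 11.8% in set 4 to 91.4% in set 2 while the set means ran from 0.546 to 1.01, so such shares are not read across sets.

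Other receptors split. Klrb1b, an inhibitory receptor of the NKR-P1 family, had means of 0.956, 1.04 and 1.2 in NK cells and at most 0.0317 in CD8 T cells (59.1-fold in set 1, 38.4 to 90.1). Klrg1, a receptor of mature NK and effector T cells, was 10.9-fold higher (6.48 to 17.5), and Fcgr3, the CD16 receptor for antibody-coated cells, 11-fold higher on 5 NK UMIs (3.37 to 28.1). Il2rb, the receptor chain shared by IL-2 and IL-15, was 1.78-fold higher (1.5 to 2.09), below the 2-fold threshold, with NK means of 2.36, 2.52 and 2.82 and CD8 T means of 1.96, 2.00 and 2.06. Klrd1 (CD94) differed little, at 1.39-fold (1.09 to 1.75). Klrc1, which encodes the NKG2A partner of CD94, was lower in NK cells in all 6 sets, with means of 0.235, 0.677 and 0.867 against 1.29, 1.41 and 1.49. Its set 1 ratio was 0.588 (0.387 to 0.856). Cd226, the activating receptor DNAM-1, was also lower in every set, with NK means of 0.0929 to 0.340 and CD8 T means of 0.564 to 0.692. Its set 1 ratio of 0.672 had an interval of 0.322 to 1.24.

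Genes of 1 stretch of chromosome 6, the NK gene complex, held many of these receptors. Between Klrb1c and Klra1 (chr6:128778485-130386874 in the GENCODE M21 annotation of GRCm38, found by symbol) lie 23 genes of the table, 20 of them outside the rule. Of the 20, 9 were higher in NK cells in each of the 5 sets and 5 lower, against 8.2% and 37.5% of all genes. Of the 13 that passed the filter 7 were higher in set 1 and 1 lower, against 8.64% and 12.3% of all 1088. The 9 were Klrb1b, Klrb1f, Klrd1, Klra1, Klra3, Klra4, Klra6, Klra7 and Klra9. For the Klra genes among them, the part of reads of Klra8, a gene of the rule, was not tested. Klra5 was not among them, with 0 UMIs in NK and 20 in CD8 T cells (log2 ratio -1.89). That CD8 T level was under the 32.1 CPM bound of the NK class, so the ratio rests on the pseudocount. The set differences of Klra5 had both signs, from -0.0901 to 0.0298. Klrc1, Cd69 and Gm156 were among the 5 lower by set means. By the set 1 counts Gm156 was the 1 called lower, whereas the ratio of Cd69, an early activation marker, was 1.42 (0.998 to 1.97).

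**Figure D2:**
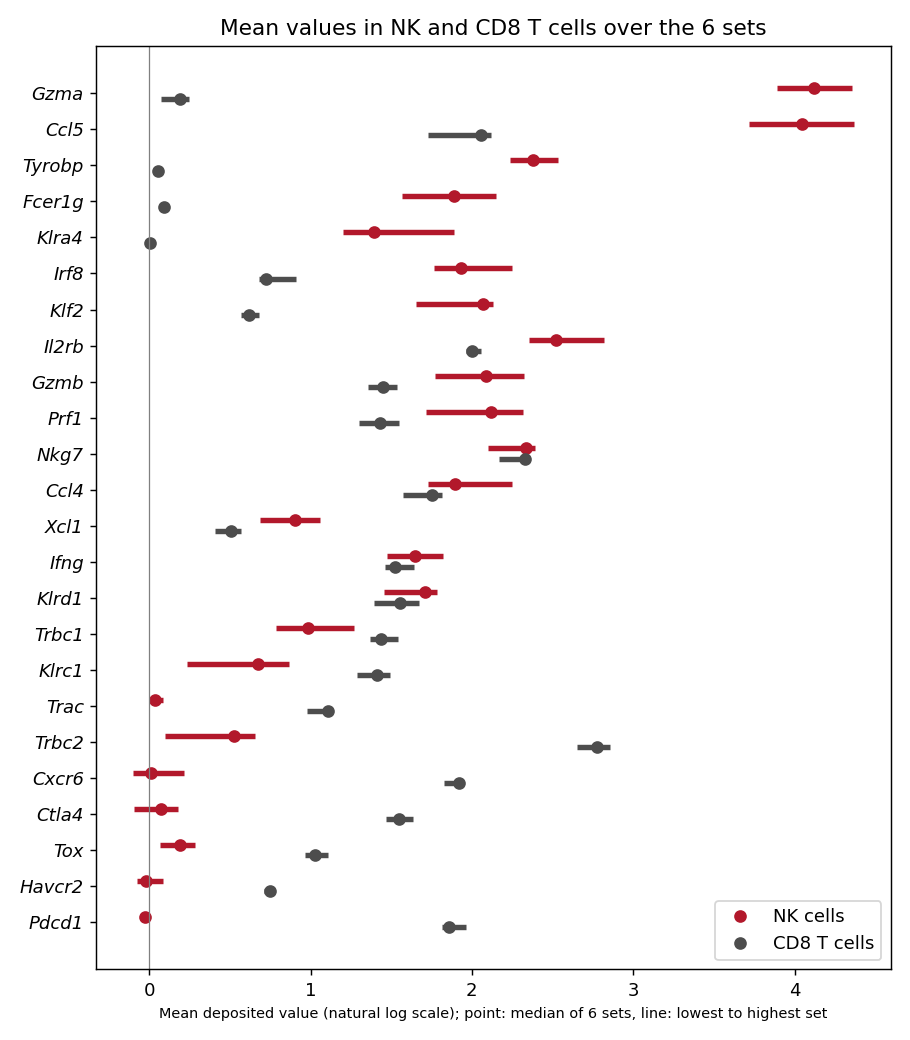
Mean deposited values (x axis, natural log scale) of 24 genes (y axis) in NK and CD8 T cells; points are medians of the 6 sets and lines run from the lowest to the highest set. Gzma, Tyrobp, Fcer1g and Klra4 lie apart at the NK end, Nkg7, Ifng, Ccl4 and Klrd1 overlap, and Pdcd1, Ctla4, Cxcr6 and Trac lie apart at the CD8 T end.

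Among killing genes, granzyme A set NK cells apart, whereas perforin and granzyme B were carried by both classes. Gzma, a serine protease of cytotoxic granules, had NK means of 4.13, 4.36, 3.89, 4.19, 4.02 and 4.11 in sets 1 to 6, and CD8 T means between 0.0730 and 0.245. The NK mean was above the CD8 T mean of the same set by 3.69 to 4.16 on the natural log scale. In set 1 this was 9644 CPM against 185 CPM, a ratio of 52.1 (47.9 to 56.7), and 25 of the 28 NK cells had a UMI. After thinning each cell to 1000 UMIs, 85.7% of NK cells (67.3% to 96.0%) and 6.53% of CD8 T cells (5.13% to 8.18%) had a Gzma UMI, against 0.134% of C1q-high cells; unthinned the shares were 89.3%, 10.7% and 0.402%. Gzmb had NK means of 1.77, 2.09 and 2.32 and CD8 T means of 1.36, 1.45 and 1.53, and Prf1, the pore-forming perforin, 1.72, 2.12 and 2.31 against 1.30, 1.43 and 1.55. The set 1 ratios were 2.40 (2.12 to 2.70) and 3.17 (2.78 to 3.59). Without the deepest NK cell they were 1.79 (1.53 to 2.08) and 1.86 (1.55 to 2.22), below 2-fold.

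All 16 genes of the granule list passed the filter, with a median log2 ratio of 1.06. In set 1, 8 were higher and 0 lower, against 8.64% and 12.3% of all 1088 genes. In the 5 sets 6 were higher throughout (Gzma, Gzmb, Prf1, Srgn, Serpinb9 and Serpinb6b) and 2 lower (Gzmk and Ctsc). The shares of all 2000 genes were 8.2% and 37.5%. The other granzymes in the set 1 count came from 1 cell: the NK cell with 13086 UMIs held 735 of 741 Gzmc UMIs and all UMIs of Gzmd (444), Gzme (135), Gzmf (450) and Gzmg (469). It also held 426 of 437 UMIs of Spp1, a secreted phosphoprotein, 96 of 116 of Tnfrsf9, 98 of the 274 Gzmb UMIs, 125 of the 253 Prf1 UMIs, and 0 of the 716 Ccl5 UMIs. Without it the median of the list was 0.51, and Gzmc, Gzmd and Tnfrsf9 had log2 ratios of -0.71, -5.78 and -0.73. Set means of Gzmc overlapped, at 0.151 to 0.442 in NK and 0.142 to 0.266 in CD8 T cells. Nkg7, a granule membrane protein, did not separate the classes either, with NK means of 2.10, 2.34 and 2.39 and CD8 T means of 2.17, 2.33 and 2.36. Serpinb9, an inhibitor of granzyme B that protects the killer cell, had NK means of 0.811, 1.07 and 1.32 against 0.530, 0.608 and 0.760 (1.58-fold in set 1, 1.08 to 2.22).

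**Figure D3:**
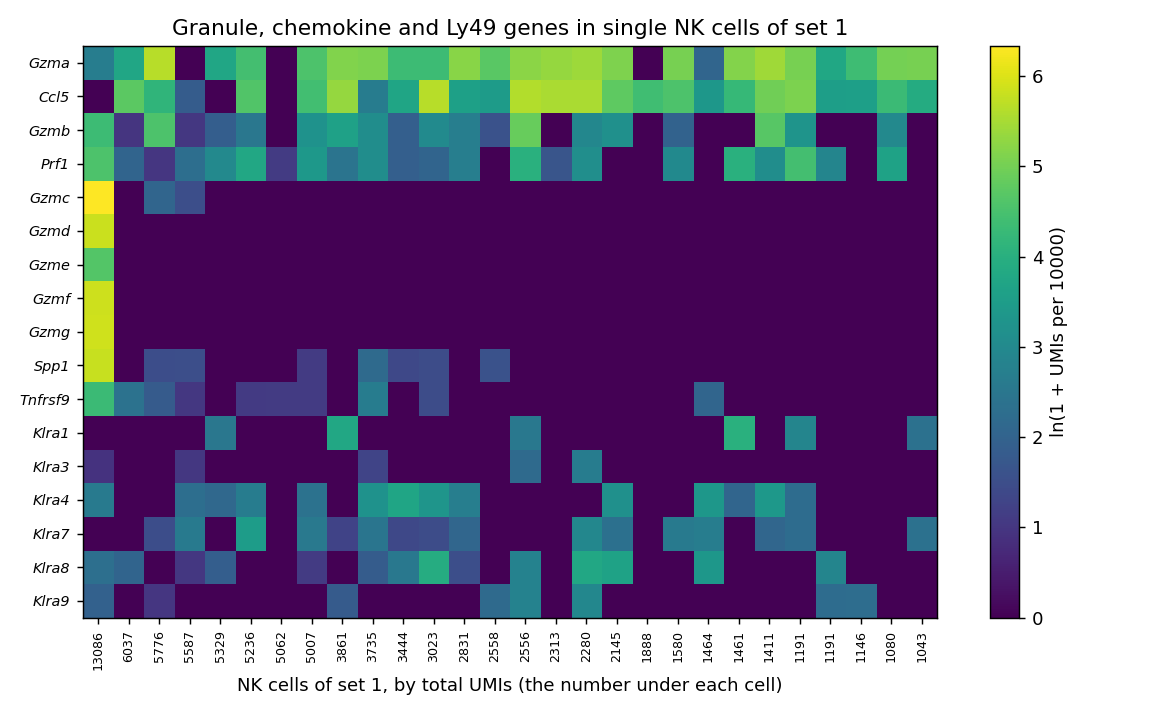
Single NK cells of set 1 (x axis, 28 cells by their total UMIs, written under each) and 17 genes (y axis); colour is ln(1 + UMIs per 10000). Gzma and Ccl5 were seen in 25 cells each, Gzmd to Gzmg in the deepest cell only, and the Ly49 genes in differing combinations. Klra8 is a gene of the rule.

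Chemokines divided in a similar way. Ccl5, which draws T cells, monocytes and NK cells, had NK means of 3.72, 4.04 and 4.37 and CD8 T means of 1.73, 2.06 and 2.12. In set 1 it had 716 and 9727 UMIs, a ratio of 5.83 (5.40 to 6.29). Xcl1, the ligand of the cross-presenting dendritic cell receptor Xcr1, had 0.687, 0.905 and 1.06 against 0.410, 0.505 and 0.569, without overlap, and a set 1 ratio of 1.92 (1.42 to 2.54). Ccl4 was 2.07-fold higher in set 1 (1.79 to 2.39), while its set means overlapped (1.73 to 2.25 and 1.57 to 1.81). Ifng, the interferon gamma gene, had overlapping means of 1.47, 1.65 and 1.82 in NK and 1.46, 1.52 and 1.64 in CD8 T cells, and a ratio of 0.806 with an interval that spans 1 (0.617 to 1.03). Ccl3 was likewise not separated (0.838, 0.589 to 1.16). Tnf had 0 UMIs in NK cells and 249 in CD8 T cells, and the interval of its ratio did not exclude 1. Ltb, the lymphotoxin beta gene, was lower in every set with NK means of 0.0462 to 0.344 and CD8 T means of 0.760 to 0.901. Of the 15 genes of this list that passed, 3 were higher (Ccl4, Ccl5 and, through 1 cell, Spp1) and 1 lower (Ccl1). The shares of all 1088 genes were 8.64% and 12.3%, and the list's median log2 ratio was -0.85.

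Most listed genes of NK cell circulation and maturation were higher in NK than in CD8 T cells. The list also holds Cd7, Ccr2 and Emb, which were higher in members without an Itgam, Klrg1 or Cma1 value (below). Of the 16 of 18 listed genes that passed, 10 were higher in NK cells and 2 lower (Cx3cr1 and Ly6c2), against 8.64% and 12.3% of all 1088 genes. The median log2 ratio was 1.32, and 12 of the 18 were higher in each of the 5 sets, against 8.2% of all 2000 genes. Klf2, a transcription factor that maintains the egress programme, had 1.65, 2.07 and 2.13 against 0.572, 0.616 and 0.680 (4.94-fold, 3.81 to 6.30). Irf8, also a dendritic cell factor, had 1.77, 1.93 and 2.25 against 0.683, 0.721 and 0.910 (4.16-fold, 3.38 to 5.08). The 13 dendritic genes, Irf8 among them, summed to 1275 CPM in NK cells, 394 CPM in CD8 T cells and 2659 CPM in C1q-high cells of set 1. Of the NK sum Irf8 was 1093 CPM and Itgax 139 CPM, and 9 genes had 0 UMIs, Xcr1, Flt3, Clec9a, Cd209a and Siglech among them. The summed means of the list over the sets were 2.18 to 3.02 in NK and 0.993 to 1.31 in CD8 T cells. S1pr5, the receptor by which NK cells leave tissue, had 6 UMIs in NK and 0 in CD8 T cells, and Cma1, a chymase gene of mature mouse NK cells, 11 and 0; both were under the 20-UMI filter. Their NK set means were 0.143 to 0.330 and 0.367 to 0.748. Tbx21, the T-bet gene, was not separated, with NK means of 0.494 to 0.890 and CD8 T means of 0.731 to 0.921.

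Tissue residency genes gave a mixed picture. Cxcr6, a homing receptor of liver-resident lymphocytes, had NK means of -0.103, 0.00866 and 0.216 against 1.83, 1.92 and 1.94 in CD8 T cells, and a set 1 ratio of 0.214 (0.117 to 0.359). All 14 NK UMIs of Cxcr6 came from 3 cells. Itga1, the CD49a integrin that marks type 1 innate lymphoid cells, had overlapping means (-0.0469 to 0.275 in NK, 0.181 to 0.297 in CD8 T cells). Its set 1 ratio of 2.73 (1.48 to 4.64) became 1.82 (0.778 to 3.61) without the deepest cell. Of the 13 genes of this list 4 were higher in set 1 and 2 lower, against 8.64% and 12.3% of all 1088 genes. By set means 6 of the 13 were lower in each of the 5 sets, against 37.5% of all genes. Car2, a carbonic anhydrase gene, alone was higher in each of the 5 sets (NK means of 0.741, 0.886 and 1.18, CD8 T means of 0.124, 0.153 and 0.176).

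Inhibitory receptors and exhaustion genes were low in NK cells. Pdcd1, which encodes PD-1, the target of the antibody in 2 of the study's groups, had NK means between -0.0426 and 0 and CD8 T means of 1.82, 1.86 and 1.97. In set 1 it had 0 UMIs in 28 NK cells and 5858 in CD8 T cells, with an upper interval limit of 0.0499 for the ratio. After thinning, 0 of 28 NK cells had a Pdcd1 UMI, which allows up to 12.3% by the exact interval, against 54.9% of CD8 T cells (51.9% to 58.0%) and 1.07% of C1q-high cells. Ctla4 was at a ratio of 0.116 (0.0465 to 0.239), Tox, a transcription factor of exhausted T cells, at 0.169 (0.0547 to 0.394), Havcr2, which encodes TIM-3, at 0.256 (0.0831 to 0.599), and Rgs16 at 0.101 (0.0504 to 0.181). For each of these the highest NK set was below the lowest CD8 T set. Of the 10 genes of the list, 6 were lower and 0 higher, against 12.3% and 8.64% of all 1088 genes. In each of the 5 sets 8 were lower, against 37.5% of all 2000 genes, and the median log2 ratio was -2.82. Nr4a3, an immediate early nuclear receptor, went the other way at 1.60-fold (1.01 to 2.42), with overlapping set means. So did Cd274, which encodes PD-L1, with a log2 ratio of 1.09 and an interval that did not exclude 1. The costimulators Tnfrsf4 (OX40) and Cd28 were also lower. Tnfrsf4 had 0 UMIs against 599, which is 2.52-fold lower with NK cells set at 3 UMIs. Cd28 had a ratio of 0.394 (0.189 to 0.725). Tnfrsf9 (4-1BB) was lower in all 6 sets although the 1 deep cell put its set 1 ratio at 3.01.

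Most T cell receptor genes were lower in NK cells by set means, and Trdc was higher. Trac had NK means of at most 0.0866 against 0.975, 1.11 and 1.14, and 1 UMI in NK cells against 2158. Trbc2 had 0.0988, 0.527 and 0.657 against 2.65, 2.77 and 2.86 (ratio 0.0731, 0.0409 to 0.121). Trbc1, the other beta constant segment, had 0.787, 0.987 and 1.27 against 1.37, 1.44 and 1.54, and in set 1 a ratio of 0.875 with an interval that spans 1 (0.637 to 1.17). It was seen in 17 of 28 NK cells. After thinning, 35.7% of NK cells (18.6% to 55.9%) and 38.2% of CD8 T cells had a Trbc1 UMI, while for Trbc2 these were 7.14% and 79.9%; in C1q-high cells they were 1.07% and 1.74%. In set 1 the UMIs of Trbc1 and Trbc2 were 45 and 15 in NK cells, and 4074 and 16252 in CD8 T cells. The segments are close copies of each other and reads could be split between them. Trdc, the delta constant segment, had 5 and 2 UMIs, and was higher in NK cells in each of the 5 sets with means of 0.0489 to 0.209. Cd5, Cd6, Themis and Tcrg-C2 are genes of T cell signalling and of the gamma receptor. They had 0 UMIs in NK cells and between 952 and 1121 in CD8 T cells. The upper interval limits of their ratios ran from 0.261 (Tcrg-C2) to 0.308 (Cd5). Of the 20 genes of the list that passed 9 were lower and 1 higher (Il2ra, with 15 of its 19 UMIs in the deepest cell). The shares of all 1088 genes were 12.3% and 8.64%, and the list's median log2 ratio was -2.52.

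Fitted ratios of genes with 0 UMIs in NK cells depend on the pseudocount. With such genes at their 3-UMI bound the median log2 ratio was -2.24 for the inhibitory list, -1.97 for the T cell receptor list, -1.81 for the cell cycle list below, -0.16 for the chemokine list and 1.93 for the NK receptor list.

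NK cells had fewer transcripts of the cell cycle than CD8 T cells. Of 28 listed genes of S phase and mitosis, all past the filter, 25 were lower and 0 higher, against 12.3% and 8.64% of all 1088 genes. In each of the 5 sets 26 were lower, against 37.5% of all 2000 genes, and the median log2 ratio was -2.21. Top2a, the topoisomerase of dividing cells, had NK means of 0.0736, 0.212 and 0.352 against 0.788, 0.852 and 1.04 (ratio 0.232, 0.120 to 0.405). Hmgb2, a chromatin protein, had 1.05, 1.22 and 1.95 against 2.30, 2.44 and 2.61. In set 1 a value above 0.5 for Mki67 or Top2a was found in 6 of 28 NK cells (21.4%, 8.30% to 41.0%) and in 62.8% of CD8 T cells (59.9% to 65.7%). CD8 T cells were deeper: thinned to 1000 UMIs, Top2a was seen in 3.57% of NK cells (0.0904% to 18.3%) and 25.5% of CD8 T cells (22.9% to 28.2%), and unthinned in 14.3% and 54.1%.

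The remaining groups differed less. For comparison, 8.64% of all 1088 genes were called higher and 12.3% lower. Glycolysis and hypoxia genes had 1 higher and 4 lower of 13 (median log2 ratio -0.56, near that of all genes), among them Gapdh at 0.403 (0.283 to 0.556) and Pgk1 at 0.426 (0.289 to 0.605), enzymes of glycolysis that were lower in all 6 sets. By set means 8 of the 13 were lower in each of the 5 sets, and 2, the hypoxia-induced genes Vegfa and Ndrg1, were higher. The shares of all 2000 genes were 37.5% and 8.2%. Of 14 interferon response genes 0 were higher and 0 lower, of 11 heat shock and immediate early genes 1 was higher (Dusp2, a phosphatase, 2.36-fold, 2.00 to 2.77), and of 8 MHC genes and of 9 mitochondrial transcripts 0 were called. H2-K1, a class I gene and Ly49 ligand, had NK means of 3.35 to 3.52 and CD8 T means of 3.10 to 3.18, a difference below 2-fold (1.41, 1.26 to 1.58).

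**Figure D4:**
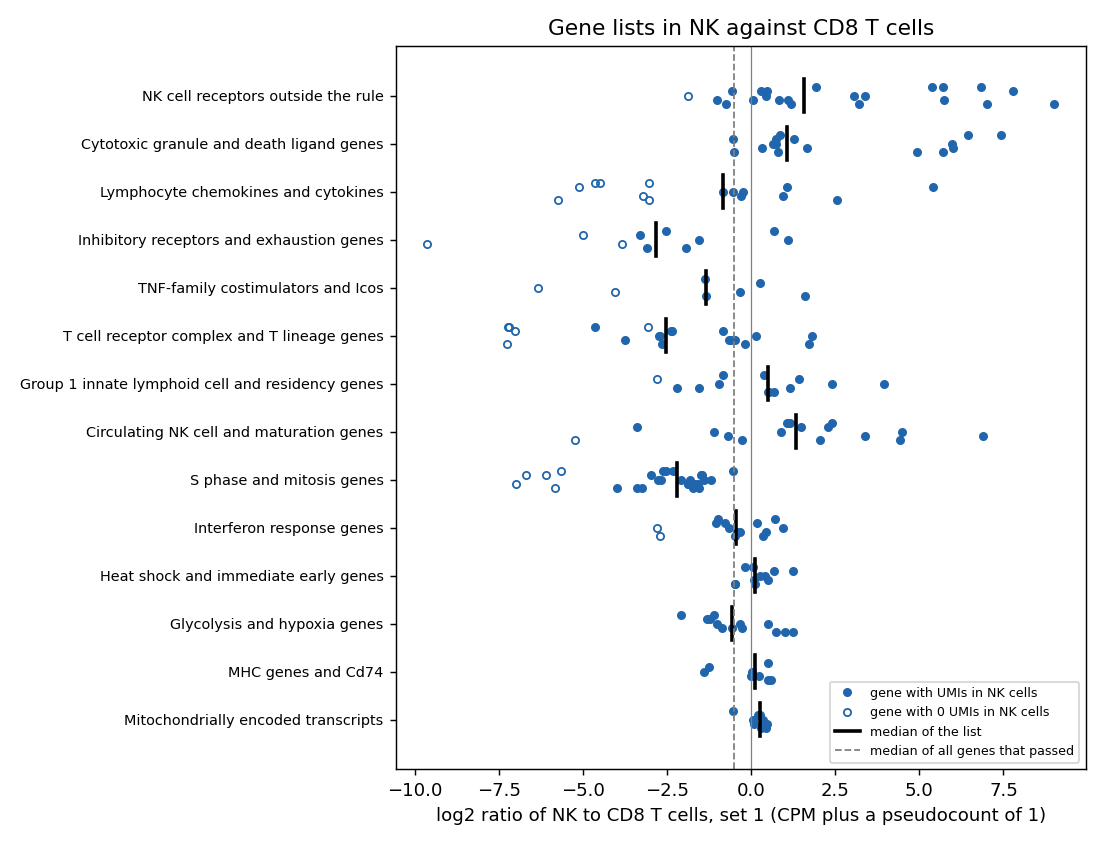
log2 ratio of NK to CD8 T cells in set 1 (x axis, CPM plus a pseudocount of 1) for the genes of 14 lists (y axis) that passed the filter; open points had 0 UMIs in NK cells, black bars are list medians and the dashed line is the median of all genes, -0.52. NK receptors and circulating NK genes lie to the right, and inhibitory receptors, T cell receptor genes and cell cycle genes to the left.

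The 15 genes with the highest log2 ratio outside the rule that kept their sign in the 5 sets included Klra4, Klra1, Tyrobp, Klra7, Atp1b1, Klra9, Klrb1b, Gzma, Fcer1g, Itgam, Cd7, Sulf2, Itgax and Car2. Beyond those described, Atp1b1, a subunit of the sodium pump, had NK means of 0.322, 0.736 and 1.04 and CD8 T means of at most 0.0279. Cd7, a surface protein of NK and T cells, had 0.516, 0.630 and 0.707 against 0.0823, 0.109 and 0.121. Itgam (CD11b) and Itgax (CD11c), integrins of myeloid and of mature NK cells, had NK means of 0.318 to 0.989 and 0.259 to 0.669, with 9 and 13 UMIs in set 1, and Sulf2, a sulfatase gene, had 0.341 to 0.543. The 15 with the lowest were Pdcd1, Tcrg-C2, Incenp, Cd6, Themis, Kif11, Cd5, Cenpf, Fbxo5, Gm156, Ccnb2, Kif23, Kif15, Dusp4 and Idi1. All 15 had 0 UMIs in NK cells of set 1, so their order follows the CD8 T level, and 0 UMIs at this depth do not show absence. The set means of Cenpf overlapped, with NK means up to 0.336 and CD8 T means from 0.261. Incenp, Kif11, Cenpf, Fbxo5, Ccnb2, Kif23 and Kif15 act in mitosis.

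Transcripts of other cells were also found in NK cells. In set 1, 96.4% of NK cells and 99.2% of CD8 T cells had a UMI of the hepatoma list. The 13 hepatoma genes summed to 2100 CPM in NK cells and 1663 CPM in CD8 T cells of set 1, against 14830 CPM in the remaining cells, most of it Afp, Alb and Fgb. Apoe, Fn1 and Ccr2 made up most of the macrophage sum given above. Over the 6 sets the summed means of the macrophage list were 3.15 to 4.27 in NK and 3.63 to 3.89 in CD8 T cells. The neutrophil list had 8 of 9 genes at 0 in NK cells, the mast cell list 10 of 11, the B cell list 8 of 9 (Ighm had 9 UMIs), the fibroblast and endothelial list 10 of 11, and the platelet list 2 of 2. The dendritic sum was higher in NK than in CD8 T cells, as given beside Irf8. The part of these transcripts in any difference was not tested.

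Members differed among themselves along genes of maturation. A division by a value above 0.5 for Itgam, Klrg1 or Cma1, chosen after the main axis of variation had been seen, placed 187 cells with such a value and 124 without. The share with ran from 42.9% in set 1 to 87.5% in set 5, and it is not read across the adjusted sets. In the 4 sets with at least 10 cells on each side, 119 of the other 1997 genes (5.96%) were higher and 56 (2.8%) lower in every set; these describe a division made from the same values and carry no test. Ccl5 had means of 4.40, 4.59 and 4.73 in cells with and 3.28, 3.41 and 3.81 in cells without. Gzmb had 2.07, 2.47 and 3.12 against 1.25, 1.41 and 1.64, and Irf8 2.15, 2.35 and 2.44 against 1.11, 1.49 and 1.66. None of these 3 overlapped. Prf1, Nkg7, Itgb2, Klf2 and S1pr5 were also higher in each of the 4 sets.

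Cells without these values had more of other genes. Xcl1 had means of 0.932, 1.08 and 1.33 without and 0.455, 0.631 and 0.719 with, and Cd7 0.628, 0.808 and 0.970 against 0.341, 0.411 and 0.583. Emb, Ccr2, Rgs2, Gimap4, Celf2, Gpr132 and Cxcr6 were also higher without in each of the 4 sets. In set 1 the 12 cells with held 16 Xcl1 UMIs and the 16 without 34, for Cd7 the counts were 5 and 35, and for Cxcr6 0 and 14. The mean value of Gzma was higher with in all 4 sets, by 0.842 to 1.13. In set 1 it was 9031 CPM with and 10289 CPM without, and 11914 CPM with once the deepest cell was left out. The cells with were slightly deeper in set 1, with a median of 3000 UMIs against 2435.5, and had higher means of the 5 NK genes of the rule, with medians of 1.46 and 1.2 over all sets. The part of depth in this division was not tested.

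**Figure D5:**
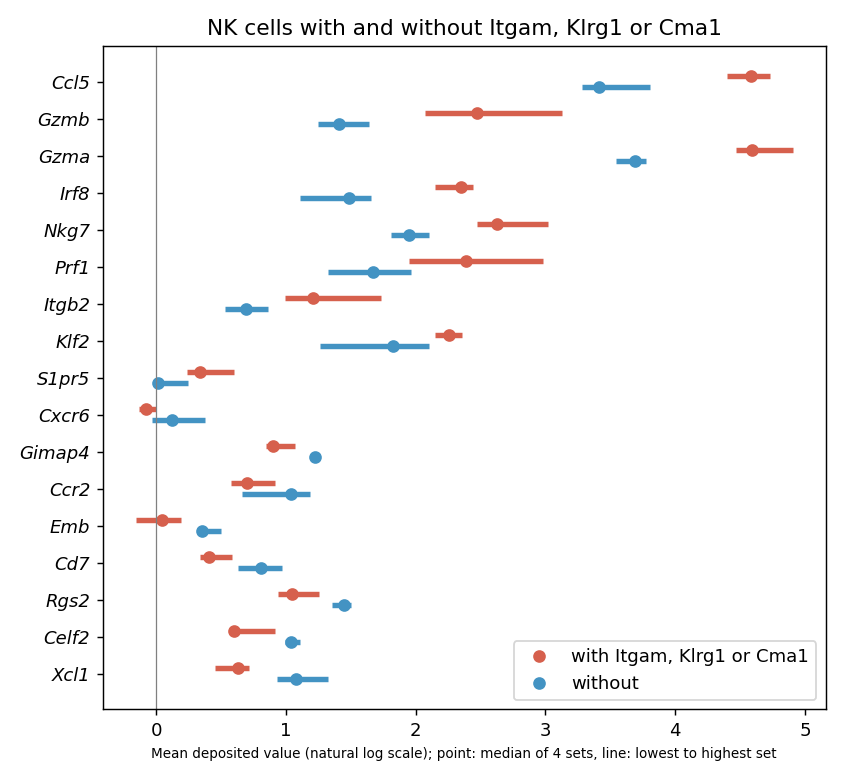
Mean deposited values (x axis, natural log scale) of 17 genes (y axis) in NK cells with and without a value above 0.5 for Itgam, Klrg1 or Cma1; points are medians of the 4 sets used and lines run from the lowest to the highest set. Ccl5, Gzmb, Gzma and Irf8 lie higher in cells with, Xcl1, Rgs2, Celf2 and Gimap4 in cells without.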

How the data were processed

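Single-cell RNA was measured in dissociated Hepa1-6 tumours. Reads were aligned with STAR 2.7.2b, UMIs were counted with PISA and cells were picked with barcodeRanks, per the labels' protocols; those name GRCh38 and the submitters' processing notes also mm10, so the build is uncertain. The table was deposited with natural log values, judged from the values: in set 1 they invert to whole UMIs (100% of nonzero values within 0.01) as the log of 1 plus UMIs per 10000. In sets 2 to 6 every cell had values below 0, and a UMI total was found for 12.5% to 29.5% of cells. All 53528 columns belong to no known sample, and the names hold no barcode sequence, so shared barcodes were not counted.

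From the set 1 counts CPM, ratios (log2 of CPM plus a pseudocount of 1) and exact conditional Poisson 95% intervals were computed for genes with at least 20 UMIs over both classes; 2-fold was the call. A gene at 0 in NK cells was bounded with 3 UMIs over the class. Intervals cover counting error only, and UMIs of 1 sample are not replicates, so no p-value was computed. For doublets, Scrublet in scanpy 1.11.5 with 6% expected marked 91 of 9370 set 1 cells, 0.971%. The 15 highest and 15 lowest genes with 1 sign in every set of at least 20 NK cells were named, with all rule genes, and list members as examples of their list. Some genes that this rule or the lists hold are not reported here. Members and lists were chosen with earlier results of these data known. The code was checked on simulated counts. Alternatives changed the NK threshold, the pseudocount, the filter, the cells compared and the depth.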

Additional observations from a re-analysis of the deposited data

Results flagged for a closer look

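Over the 6 sets, 43 values were examined for a set far from the others, and 3 were found. Among the 43 were the NK share of all cells and NK cells per 100 CD8 T cells. The others were differences of mean values between NK and CD8 T cells for single genes. These genes were the 11 of the rule, by which cells were chosen, and the 15 highest and 15 lowest, picked from these data. Chance gives about 1 in 20 for values not picked in this way. That rate therefore cannot judge the 3, and no conclusion is drawn from it. Sets 2 to 6 had been adjusted, and the part of that adjustment in the 3 values was not tested. Klrb1c, a gene of the rule, differed by 2.21 in set 2 and by 1.88 to 1.99 in the others. Itgam differed by 0.978 in set 5 and by 0.295 to 0.446 in the others. Cd5 differed by -0.426 in set 3, which has 16 NK cells, and by -0.635 to -0.582 in the others.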

How the results depend on the processing

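The NK share of all cells was 0.687% with a threshold of 0.5 and 0.366% with 1.2. The count of genes at least 2-fold higher (181) was 87 in cells without Mki67 or Top2a, 95 after thinning to 1000 UMIs, 111 with a pseudocount of 10 and 94 where the interval had to exclude 1; the count lower (470) was 218, 265, 248 and 134. The median log2 ratio of the granule list (1.06) was 0.37 in cells without Mki67 or Top2a and 0.51 without the deepest NK cell, an alternative added after seeing the data, as was the interval. The deepest NK cell held Top2a UMIs, so both alternatives leave it out and they are not separate checks. Among single genes past 2-fold, direction turned for Gzmc (-1.03), Gzmd (-6.14), Tnfrsf9 (-1.55) and Itga1 (-0.12) in cells without Mki67 or Top2a, and for Gzmc (-0.71), Gzmd (-5.78) and Tnfrsf9 (-0.73) without the deepest cell, which held most of their UMIs. Over all list members past 2-fold, Gzme (-5.57), Gzmf (-6.27), Gzmg (-4.86) and Il2ra (-0.19) also turned without the deepest cell, and in cells without Mki67 or Top2a Gzme (-6.20), Gzmf (-6.86), Gzmg (-6.33), Il2ra (-1.18), Spp1 (-0.19), Cd274 (-0.30), Crtam (-0.34), Tcrg-C1 (-2.72), Plk1 (2.24), Tubb5 (0.02) and Ube2c (0.34). For single genes 587 values stayed within the interval of the main value and 102 left it without turning, and 132 values of other lists stayed within it. With 93321 UMIs in 28 NK cells, levels under 32.1 CPM cannot be told from 0. No paired analysis was possible because cells are tied to no group and no numbered replicate, and no test was run.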
